A study of Homo sapiens with 4 samples.

Results

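10 genes of the actin cytoskeleton were read from the count table by symbol: AIF1L and AIF1, the 3 ENA/VASP genes ENAH, EVL and VASP, the 3 plastin genes PLS1, PLS3 and LCP1, the fascin gene FSCN1 and the alpha-actinin gene ACTN1. All 10 of 10 symbols were found, among 35606 genes in the table. K562 is an established human leukaemia cell line with erythroid features. The series holds 4 libraries from it: 2 from cells labelled JAZF1-SUZ12, a fusion gene of endometrial stromal sarcoma, and 2 from cells labelled mock, each numbered 1 and 2. The labels give no other allele or agent and do not state how the fusion was introduced, and nothing says that libraries of a group came from separate cultures, so the p-values measure only the spread between these libraries. The list was drawn up around AIF1L with the results of this comparison known, so its genes were chosen by name with their changes between the same 4 libraries in view, and AIF1L has the smallest p-value of all genes tested. The changes of the 10 genes between the groups are therefore given as a description, with the adjusted p-value of the fit over all genes beside them.

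Actin filaments grow by adding monomers at their barbed ends. ENA/VASP proteins bind there, shield the end from capping proteins and draw in monomers carried by profilin, while bundling proteins such as plastins, fascin and alpha-actinin tie filaments into parallel or contractile bundles. AIF1L and AIF1 are small EF-hand proteins that bind actin. AIF1, also called IBA1, is a marker of microglia and macrophages. LCP1, or L-plastin, is the plastin of blood cells, whereas PLS3 is found mainly in solid tissues and PLS1 in intestinal and inner ear cells.

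The libraries held between 17260936 and 24423028 counts. JAZF1 counts numbered 12 and 27 in mock against 574 and 731 in JAZF1-SUZ12 libraries, and SUZ12 was also higher in both of the latter (log2 fold change 1.01). The source label names the uterus, but the libraries carried erythroid markers: the summed level of 11 such genes was between 11305 and 11660 CPM (counts per 1000000 of the library's total) in mock and between 13302 and 13436 CPM in JAZF1-SUZ12 libraries, with 5 of the 11 called higher, among them HBZ (log2 fold change 0.86) and ALAS2 (0.68), and 0 lower. Of 12 stromal and adherent markers, 6 had enough counts to be tested and 6 did not, with LUM and FAP at 0 in every library. VIM was the most abundant, at 443 and 462 CPM in mock and 510 and 503 CPM in JAZF1-SUZ12 libraries. VIM and COL1A1 were called higher and 0 were called lower. Across the transcriptome, 3643 of 14750 genes tested were called at an adjusted p under 0.05 (edgeR quasi-likelihood test, Benjamini-Hochberg), or 24.7%, with 13.3% higher and 11.4% lower in JAZF1-SUZ12 libraries.

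All 10 genes had enough counts to be tested, PLS3 only through the JAZF1-SUZ12 libraries. AIF1L, ENAH and PLS3 were called higher, by 4.71-fold, 6.52-fold and 5.02-fold. VASP, LCP1, AIF1 and FSCN1 were called lower, by factors of 1.37, 1.19, 1.81 and 1.09, and EVL, PLS1 and ACTN1 were not called. The 3 called higher were each at least 2-fold up, and 7.46% of all genes tested were at least 2-fold up, 5.55% being also called. The PLS3 call rests on few counts and was lost under several alternatives. The median size of the log2 change was 0.35 over the 10 genes and 0.17 over all genes tested. DESeq2 called 5 of the 10 genes, against 16.3% of all genes. The authors' deposited table calls 5, against 8.5% of the genes with an adjusted p in it. The sets differ, since DESeq2 called FSCN1 and not PLS3, and the authors' deposited table calls PLS3 and not FSCN1. Because the 10 genes were chosen with their changes in view, these comparisons with all genes cannot show that the list stands out.

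**Figure D1:**
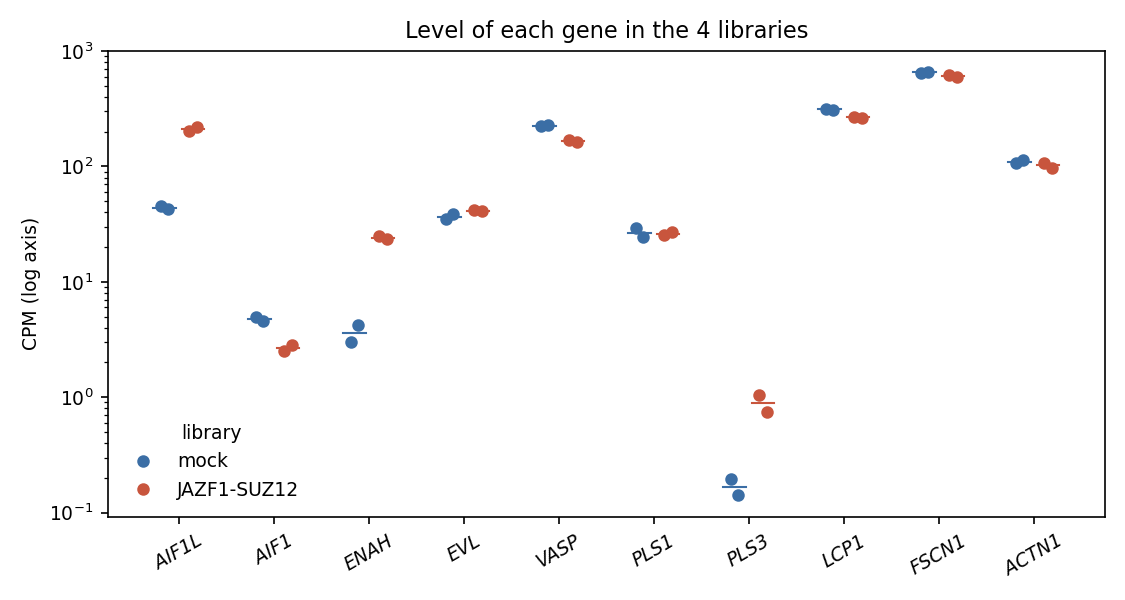
Level of each of the 10 genes in CPM on a log axis, with 1 point per library (blue, mock; red, JAZF1-SUZ12) and a line at the mean of each group of 2. AIF1L, ENAH and PLS3 lie well higher in the JAZF1-SUZ12 libraries, whereas PLS1 and ACTN1 overlap between the groups.

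AIF1L (ENSG00000126878; GRCh38 chromosome 9, 131096476 to 131123152, plus strand) stood at 45.6 and 42.3 CPM in the mock libraries and at 202 and 218 CPM in the JAZF1-SUZ12 libraries. Both JAZF1-SUZ12 libraries lay far above both mock libraries, and libraries of a group lay close together. The log2 change was 2.24 (SE 0.06; edgeR, adjusted p = 7.23e-13), and it stayed between 2.17 and 2.28 over 11 alternative fits. In the authors' deposited table it was 2.22 (SE 0.09). In these bulk libraries a change in the number of cells that express a gene cannot be told apart from a change in RNA per cell.

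AIF1, the paralogue on chromosome 6 (31615184 to 31617021, within the major histocompatibility complex), went the other way. It had 4.94 and 4.60 CPM in mock and 2.49 and 2.83 CPM in JAZF1-SUZ12 libraries, from 43 to 101 counts per library, with no overlap. It changed by -0.86 on the log2 scale (SE 0.24; edgeR, adjusted p = 0.0143). The call was lost with DESeq2 (adjusted p = 0.0640) and without mock replicate 1 (edgeR, adjusted p = 0.0589), and the authors' deposited table does not call it (adjusted p = 0.221). Per kb of each gene's longest transcript, AIF1L made up 75.6% ± 0.0480 of the summed level of the pair in mock and 96.4% ± 0.125 in JAZF1-SUZ12 libraries (SD, n = 2 each). The summed level of the pair went from 16.5 ± 0.863 to 62.0 ± 3.37 CPM per kb (SD, n = 2 each), with AIF1L higher and AIF1 lower.

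Part of the monocyte and macrophage markers was lower beside AIF1. Of 10 such genes, 6 were tested and 3 were called, all lower, where 24.7% of all genes were called: CD68 (log2 fold change -0.67), LYZ (-0.51) and SPI1 (-0.29), the last a myeloid transcription factor. ITGAM (-0.80), CD163 (0.54) and FCGR3A (1.82), all scarce, did not pass (edgeR, adjusted p = 0.158, 0.579 and 0.0817). The summed level of the 10 genes was between 99.4 and 105 CPM in mock and between 73.6 and 74.0 CPM in JAZF1-SUZ12 libraries. CD14, MRC1 and MARCO had at most 3 counts in every library. The part of these genes' cell of origin in the AIF1 result was not tested.

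Among the ENA/VASP genes, ENAH (ENSG00000154380; chromosome 1, 225486835 to 225653142, minus strand), which encodes Mena, was the one that rose. It had 62 and 90 counts in mock and 431 and 570 in JAZF1-SUZ12 libraries, or 3.03 and 4.23 against 25.0 and 23.3 CPM. The groups were far apart, and the mock libraries differed more from each other in proportion than the JAZF1-SUZ12 libraries did. The log2 change was 2.71 (SE 0.15; edgeR, adjusted p = 7.04e-09). The value rose to 2.96 when mock replicate 2 was omitted and dropped to 2.48 when mock replicate 1 was. The authors' deposited table gives a larger change, 3.50 (SE 0.25).

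VASP (chromosome 19, 45506579 to 45526983), the founding member of the family, fell from 222 and 227 CPM in mock to 170 and 163 CPM in JAZF1-SUZ12 libraries, with no overlap. The log2 change was -0.45 (SE 0.05; edgeR, adjusted p = 6.66e-06), and the authors' deposited table gives -0.44. EVL (chromosome 14, 99971449 to 100144236), the ENA/VASP protein typical of lymphoid and other blood cells, was at 35.0 and 38.3 CPM in mock and at 41.7 and 41.0 CPM in JAZF1-SUZ12 libraries. This log2 difference of 0.15 (SE 0.07) did not pass (edgeR, adjusted p = 0.155), although the groups did not overlap. Such separation is common here, since 61% of all genes tested had CPM ranges that did not overlap.

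In absolute terms VASP remained the main ENA/VASP transcript. Per kb of longest transcript it held 90.5% ± 0.435 of the summed level of the 3 genes in mock and 84.8% ± 0.152 in JAZF1-SUZ12 libraries (SD, n = 2 each). The share of ENAH went from 0.256% ± 0.0542 to 2.15% ± 0.0456 and that of EVL from 9.20% ± 0.381 to 13.1% ± 0.198 (SD, n = 2 each). The summed level of the 3 genes was 107 ± 2.28 CPM per kb in mock and 85.3 ± 2.27 CPM per kb in JAZF1-SUZ12 libraries (SD, n = 2 each), so the added ENAH transcript was smaller than the loss of VASP transcript. The ENAH share depends on the length used, because its longest transcript has 13168 bases and its median transcript 888. With median lengths the share was 1.03% in mock and 8.05% in JAZF1-SUZ12 libraries. The EVL share depends on it too, at 15.5% and 16.4% in mock and 21.8% and 22.2% in JAZF1-SUZ12 libraries with principal transcripts as APPRIS tags them.

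**Figure D2:**
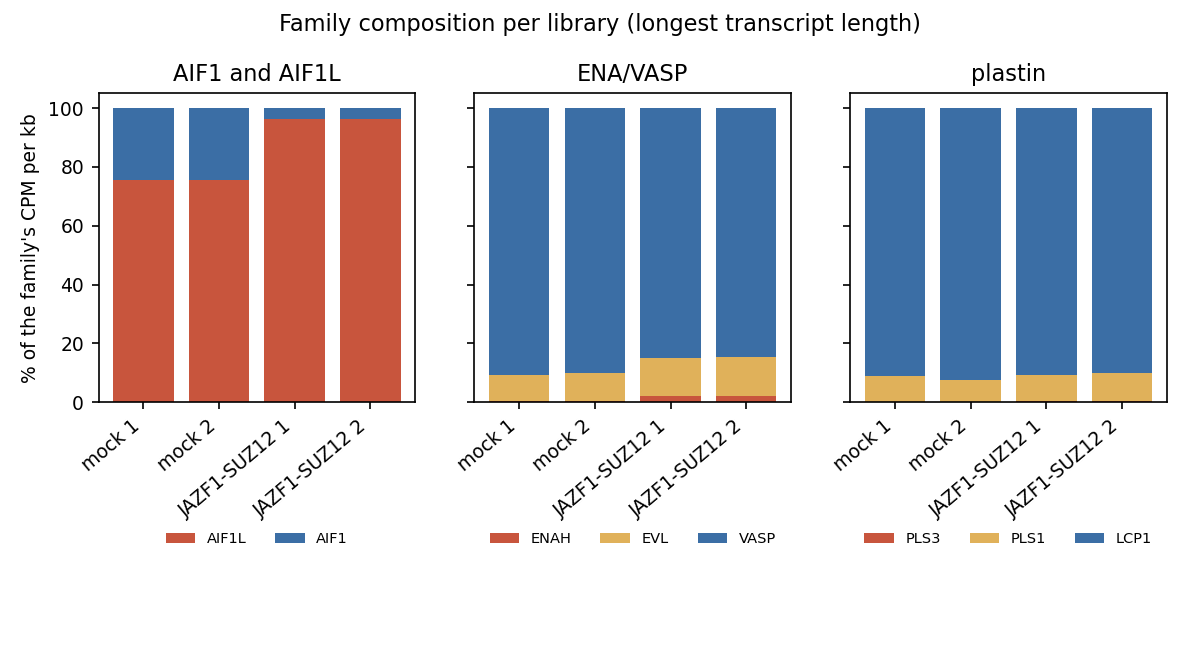
Share of each member in the summed CPM per kb of its family, in percent, 1 bar per library. The AIF1L share goes from 75.6% to 96.4%, the ENAH share from 0.256% to 2.15%, and LCP1 holds at least 90.0% of the plastins in all 4 libraries.

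LCP1 (chromosome 13, 46125920 to 46211871, minus strand), the abundant plastin, fell from 315 and 309 CPM in mock to 268 and 262 CPM in JAZF1-SUZ12 libraries. The groups did not overlap. It changed by -0.26 on the log2 scale (SE 0.04; edgeR, adjusted p = 0.000621), and the authors' deposited table gives -0.32. PLS1 (chromosome 3, 142596387 to 142713664) had 593 and 517 counts in mock and 435 and 653 in JAZF1-SUZ12 libraries, a mean of 26.6 ± 3.34 against 26.0 ± 1.09 CPM (SD, n = 2 each), with overlap. The change of -0.05 on the log2 scale (SE 0.09) did not pass (edgeR, adjusted p = 0.721).

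PLS3 (chromosome X, 115561174 to 115650861) was scarce. Mock libraries held 4 and 3 counts of it, at or next to the floor of 3 counts, and JAZF1-SUZ12 libraries 18 each. The ratio of its summed CPM was 5.15, with an exact 95% interval from 2.26 to 13.7 that covers counting error only. The log2 change was 2.33 (SE 0.68; edgeR, adjusted p = 0.0205). The call was lost with DESeq2 (adjusted p = 0.0821) and when any 1 library was left out (edgeR, adjusted p from 0.0856 to 0.171). The authors' deposited table calls PLS3, at 3.84 on the log2 scale (SE 1.15). At 0.364% ± 0.0840 of the summed plastin level per kb in JAZF1-SUZ12 libraries (SD, n = 2), it added little to the LCP1 transcript, which held 91.7% ± 0.855 in mock and 90.3% ± 0.422 in JAZF1-SUZ12 libraries (SD, n = 2 each).

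FSCN1 (chromosome 7, 5592823 to 5606655), the fascin of filopodia, had the highest level per kb of the 10 genes. It was at 650 and 658 CPM in mock and at 623 and 591 CPM in JAZF1-SUZ12 libraries. This log2 difference of -0.13 (SE 0.04) passed narrowly (edgeR, adjusted p = 0.0423) and is not called in the authors' deposited table (adjusted p = 0.106). It did not pass when genes averaging under 50 counts were left out of the fit (edgeR, adjusted p = 0.0587), nor without JAZF1-SUZ12 replicate 2, mock replicate 1 or mock replicate 2 (edgeR, adjusted p = 0.267, 0.0644 and 0.0973). ACTN1 (chromosome 14, 68874143 to 68979440), a crosslinker of stress fibres and focal adhesions, overlapped between the groups, at 107 and 113 CPM in mock and 108 and 95.9 CPM in JAZF1-SUZ12 libraries. It changed by -0.13 on the log2 scale (SE 0.06; edgeR, adjusted p = 0.151), and it passed only without JAZF1-SUZ12 replicate 1 (edgeR, adjusted p = 0.00478).

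**Figure D3:**
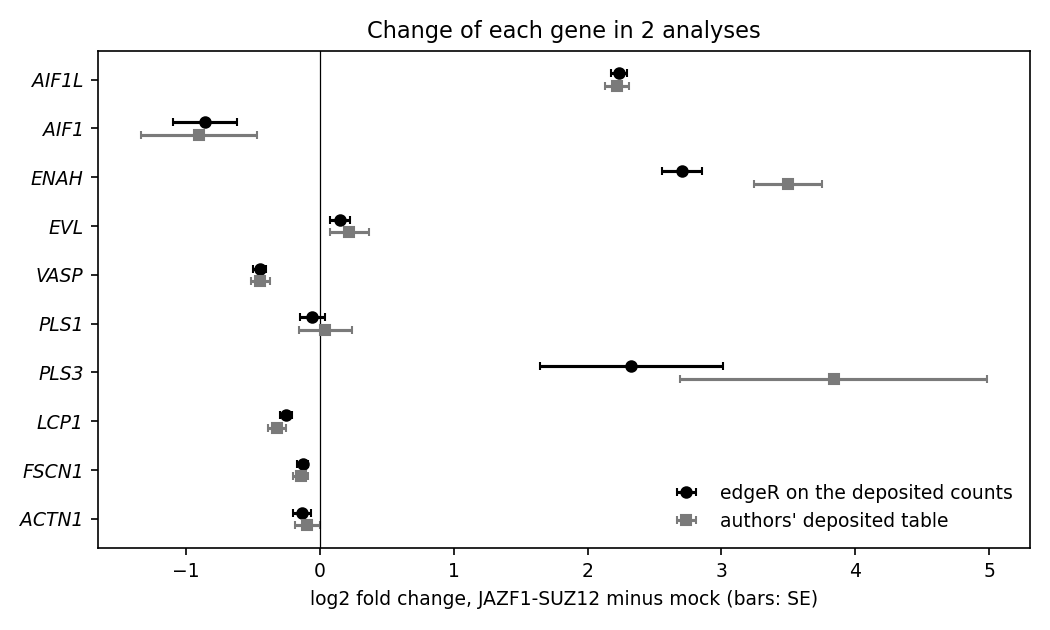
Log2 change from mock to JAZF1-SUZ12 libraries (bars, standard error), from edgeR on the deposited counts (circles) and from the authors' deposited table (squares). The direction is the same in both except for PLS1, which lies next to 0, and ENAH and PLS3 are larger in the authors' deposited table (3.50 and 3.84).

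Ordered by level per kb of longest transcript, mock libraries ran FSCN1, VASP, LCP1, ACTN1, AIF1L, EVL, PLS1, AIF1, ENAH and PLS3. The order in JAZF1-SUZ12 libraries was the same, except that AIF1L, at 59.7 CPM per kb against 12.5 in mock, passed ACTN1 and came within a factor of 1.12 of LCP1. No neighbours in either order overlapped between their 2 libraries. The closest were VASP and LCP1 in JAZF1-SUZ12 libraries, at a ratio of 1.08. With median transcript lengths the order differed, and AIF1L stayed below ACTN1.

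Promoter sequences were compared for genes that rose and fell. RefSeq start sites (GRCh38.p14) gave windows for 8 of the 10 genes; AIF1L and FSCN1 had none. The 250 bases before the start are shown for ENAH and PLS3, which rose, and for VASP and LCP1, which fell, 5′ to 3′ on the gene's strand, with CG dinucleotides in capitals. For PLS3, which has a further start, the first is shown. They are ENAH at chr1:225653124-225653373 (minus strand), PLS3 at chrX:115560924-115561173 (plus strand), VASP at chr19:45507229-45507478 (plus strand) and LCP1 at chr13:46182178-46182427 (minus strand).
ENAH: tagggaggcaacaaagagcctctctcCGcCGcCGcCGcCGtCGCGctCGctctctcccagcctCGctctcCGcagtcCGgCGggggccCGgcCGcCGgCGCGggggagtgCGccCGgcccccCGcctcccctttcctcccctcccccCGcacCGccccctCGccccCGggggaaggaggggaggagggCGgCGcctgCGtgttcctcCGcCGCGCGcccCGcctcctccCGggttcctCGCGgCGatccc
PLS3: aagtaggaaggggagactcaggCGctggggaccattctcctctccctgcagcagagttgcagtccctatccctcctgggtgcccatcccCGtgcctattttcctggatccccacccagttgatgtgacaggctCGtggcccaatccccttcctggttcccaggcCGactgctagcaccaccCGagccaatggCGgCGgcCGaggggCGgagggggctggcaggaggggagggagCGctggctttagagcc
VASP: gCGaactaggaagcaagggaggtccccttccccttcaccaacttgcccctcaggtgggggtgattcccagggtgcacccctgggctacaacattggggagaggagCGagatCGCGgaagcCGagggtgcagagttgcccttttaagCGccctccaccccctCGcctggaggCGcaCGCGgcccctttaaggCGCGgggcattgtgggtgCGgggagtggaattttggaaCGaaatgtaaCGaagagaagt
LCP1: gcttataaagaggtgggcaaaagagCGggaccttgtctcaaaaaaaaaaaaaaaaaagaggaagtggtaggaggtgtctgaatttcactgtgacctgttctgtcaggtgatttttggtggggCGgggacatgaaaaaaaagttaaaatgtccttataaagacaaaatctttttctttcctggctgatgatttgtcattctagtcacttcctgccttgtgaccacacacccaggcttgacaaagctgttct

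The ENAH window held 36 CG dinucleotides, more than 95.1% of the 35116 windows in the table, whose median was 11. PLS3 held 10, VASP 15 and LCP1 2, so VASP and PLS3 both lay near the median. The windows of AIF1, not shown, held 1 and 4. TATAAA was found in the LCP1 window, on either strand, as in 10.7% of all windows. The CArG box, which serum response factor binds, AGATAA, a form of the GATA site, and CACGTG, an E-box, were searched on both strands. They were not in these 4 windows, and they occur in 1.16%, 9.17% and 6.34% of all windows. Among the members' windows not shown, a window of AIF1 and a window of PLS1 hold the GATA form. A window of ACTN1 holds a CArG box and TATAAA, and separate windows of EVL hold CACGTG and TATAAA. A CArG box can itself contain TATAAA. The VASP and LCP1 windows lie inside the gene spans given above, so their starts are not the outermost ones annotated. Which start site K562 cells use was not measured.

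Neighbouring genes were examined for the 3 genes that rose, taking the nearest 3 tested genes on each side, a choice made after the values of the 3 genes were seen. LAMC3, a laminin chain gene that ends 2.003 kb before AIF1L begins, rose from 0.538 and 0.329 CPM in mock to 3.13 and 2.83 CPM in JAZF1-SUZ12 libraries. It changed by 2.74 on the log2 scale (SE 0.42; edgeR, adjusted p = 0.000192). Its mock libraries alone would not have passed the filter, since only 1 of them reached the count cutoff. FIBCD1, 157 kb before AIF1L, rose by 2.63 on the log2 scale (edgeR, adjusted p = 4.03e-05), also from a low level. On the other side NUP214, a nuclear pore gene that starts 2.41 kb after AIF1L ends, was at 558 and 595 CPM in mock and 552 and 543 CPM in JAZF1-SUZ12 libraries and was not called (edgeR, adjusted p = 0.134). None of the 6 neighbours of ENAH was called, the nearest, LBR, changing by -0.11 (edgeR, adjusted p = 0.0930). Around PLS3, LUZP4 and KLHL13 were called higher (log2 fold changes 1.10 and 1.18) and DOCK11 lower (-0.21). These genes are distant, LUZP4 lying 254 kb before PLS3, and KLHL13 and DOCK11 2247 and 2845 kb after it.

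**Figure D4:**
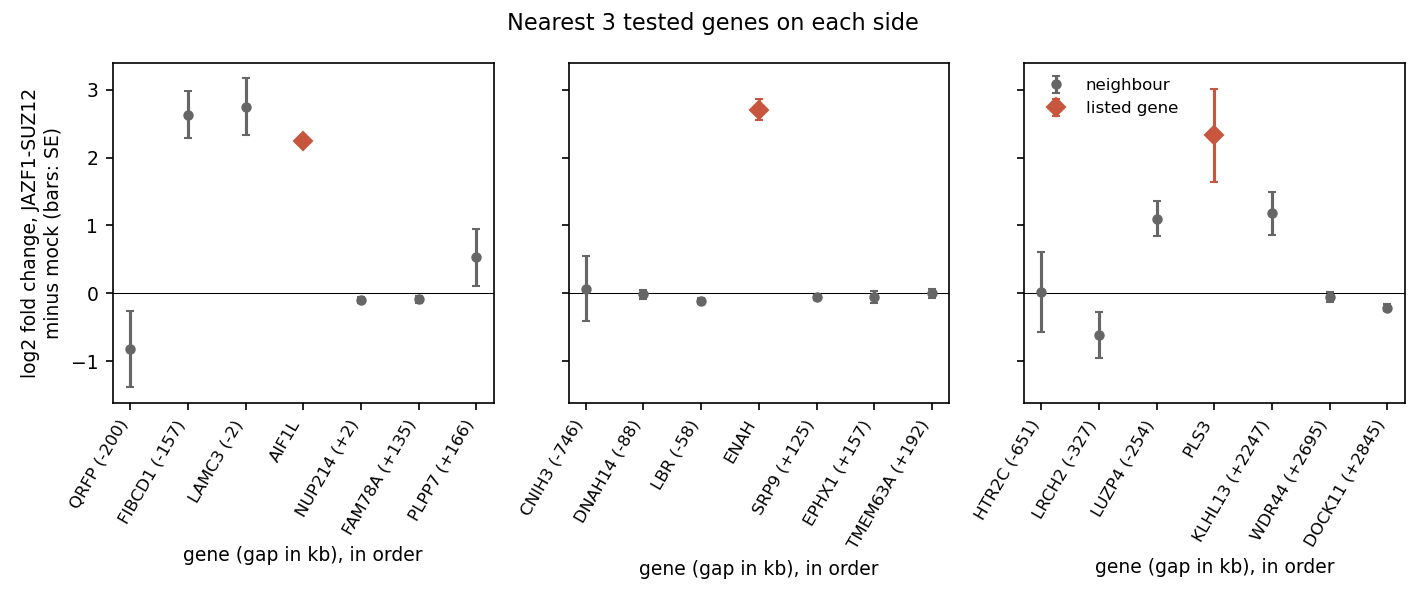
Log2 fold change with standard error of AIF1L, ENAH and PLS3 (red diamonds) and of the nearest 3 tested genes on each side (grey), in order along the chromosome with the gap in kb in brackets. FIBCD1 and LAMC3 lie near AIF1L in size, at 2.63 and 2.74, while all 6 neighbours of ENAH lie near 0.

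Overlapping genes bear on the counts of some members, since whether counting used the strand is not given in the sources used here. DEGS2 overlaps the end of EVL on the opposite strand and had from 72 to 119 counts per library, changing by -0.07 on the log2 scale (edgeR, adjusted p = 0.849). PLS3-AS1 and PLS1-AS1 overlap their genes on the opposite strand and were not analysed here. AIF1L, AIF1, ENAH, VASP and FSCN1 overlap no other annotated gene.

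Genes whose profile was most like that of AIF1L were sought by the smallest Euclidean distance between log2 CPM profiles centred on their mean over the 4 libraries, among genes with a mean of at least 50 counts. They were OSMR, DENND11, SYPL2, ADGRA3 and TIMP3, at distances from 0.105 to 0.216. OSMR, a cytokine receptor subunit, was the nearest, with 0.832 and 0.845 CPM in mock and 4.35 and 4.71 CPM in JAZF1-SUZ12 libraries. With 4 libraries, such likeness says only that these genes changed by a like amount, with log2 fold changes from 2.10 to 2.47.

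The actin machinery around the 10 genes was examined in 6 lists holding 110 other genes, of which 95 were tested. Of these, 16 were called higher and 18 lower, or 35.8% against 24.7% of all genes tested, with a median of -0.03 on the log2 scale against 0.0032 for all genes. Without JAZF1-SUZ12 replicate 2, 8 were called higher and 11 lower, or 19.8% of the 96 then tested, against 17% of all genes in that fit. No direction was common to the lists.

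Among 12 ENA/VASP ligands and profilins, 10 were tested, 1 was called higher and 2 lower, or 30% against 24.7% of all genes tested. RAPH1, or lamellipodin, which recruits ENA/VASP proteins to the leading edge, had 3 and 16 counts in mock and 69 and 63 in JAZF1-SUZ12 libraries and was singled out after its values were seen. On low counts it reached the filter's cutoff in both JAZF1-SUZ12 libraries and in 1 mock library. The mock libraries alone would not have passed the filter. RAPH1 changed by 2.81 on the log2 scale (SE 0.51; edgeR, adjusted p = 0.000760). The value was 2.08 without mock replicate 1. Omitting mock replicate 2 leaves a mock library of 3 counts, and the fitted value was then 4.39. PFN1, the main profilin, fell by 0.16 on the log2 scale, the mean being 653 ± 6.63 CPM in mock libraries and 593 ± 20.8 CPM with JAZF1-SUZ12 (SD, n = 2 each). It passed (edgeR, adjusted p = 0.0139) but did not pass without JAZF1-SUZ12 replicate 2 (edgeR, adjusted p = 0.0834). TRIP6, a focal adhesion protein related to zyxin, fell by 0.38. Zyxin itself, ZYX, also singled out, stood at -0.06 and was not called (edgeR, adjusted p = 0.525).

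Of 32 other crosslinkers and bundlers, 27 were tested, 7 were called higher and 4 lower, or 40.7% against 24.7% of all genes tested. ESPN and VIL1, bundlers of microvilli and stereocilia, rose from low levels, ESPN from 5.27 ± 0.0166 to 10.7 ± 0.147 CPM and VIL1 from 2.99 ± 0.422 to 6.32 ± 2.30 CPM (SD, n = 2 each). VIL1 did not pass without JAZF1-SUZ12 replicate 2 (edgeR, adjusted p = 0.165). CNN2, a calponin, fell by 0.24 from 149 ± 0.622 CPM (SD, n = 2).

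Of 13 formins, which also elongate filaments at the barbed end, 9 were tested. Of these, 2 were called higher and 3 lower, or 55.6% against 24.7% of all genes tested. DIAPH1, the most abundant of them by count, fell from 626 ± 1.81 to 464 ± 6.71 CPM (SD, n = 2 each), or by -0.45 on the log2 scale (SE 0.04; edgeR, adjusted p = 9.99e-07). FHOD1 fell by 0.30, whereas FMNL2 rose from 23 and 43 counts to 107 and 162, or from 1.57 ± 0.632 to 6.42 ± 0.307 CPM (SD, n = 2 each). FHOD3, singled out after its values were seen, was at 0 counts in both mock libraries and at 18 and 29 counts with JAZF1-SUZ12. Against a floor of 3 counts per library it was at least 7.75-fold higher. It reached the filter only through the JAZF1-SUZ12 libraries, where it is high.

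Of 22 ARP2/3 and WAVE/WASP genes, all 22 were tested, 1 was called higher and 4 lower, or 22.7% against 24.7% of all genes. The ARP2/3 subunits ARPC4 and ARPC1B fell by 0.35 and 0.20 on the log2 scale, and CYFIP2, a WAVE complex subunit, rose by 0.99 from 5.45 ± 0.791 CPM (SD, n = 2). Of 21 capping, severing and monomer-binding genes, 20 were tested, with 4 higher and 4 lower, or 40% against 24.7% of all genes. TMOD1 and TMOD2, tropomodulins that cap pointed ends, rose by 0.37 and 0.75, and CAP1 fell by 0.25. TMOD1 is the tropomodulin of red cells, and the part of the erythroid level in its rise was not tested. Of 10 actins and tropomyosins, 7 were tested, with 1 higher and 1 lower, or 28.6% against 24.7% of all genes. ACTB, cytoplasmic beta-actin, fell from 2173 ± 124 to 1824 ± 27.1 CPM (SD, n = 2 each), or by -0.27 on the log2 scale (edgeR, adjusted p = 0.000329), and ACTG1, singled out as the other cytoplasmic actin, was not called at -0.05.

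**Figure D5:**
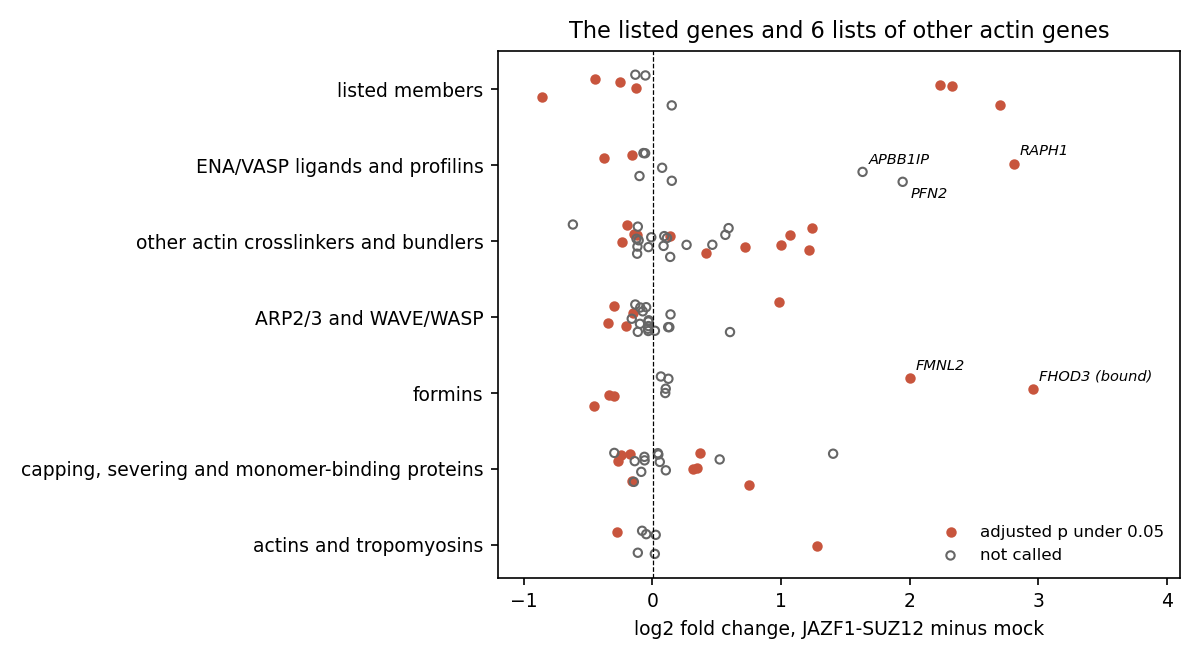
Log2 fold change of the 10 genes and of the tested genes of 6 lists of other actin genes; filled points passed an adjusted p of 0.05 (edgeR), the dashed line is the median of all genes tested, and FHOD3 is drawn at its lower bound. Most points lie near the dashed line, while the 3 listed genes that rose, RAPH1, FMNL2 and FHOD3 lie far to its right. PFN2 and APBB1IP, tested only through the JAZF1-SUZ12 libraries and not called, also lie to the right, at 1.95 and 1.63.

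The stromal and adherent markers are set beside AIF1L, ENAH and PLS3, genes that adherent cells also express. Of 12 such genes, 6 were tested and 2 were called, both higher, where 24.7% of all genes were called: COL1A1 (log2 fold change 1.86) and VIM (0.14). The summed level was between 460 and 478 CPM in mock and between 537 and 542 CPM in JAZF1-SUZ12 libraries, most of it VIM. Summed over the 11 genes other than VIM it was between 16.8 and 17.6 CPM in mock and between 31.6 and 34.0 CPM in JAZF1-SUZ12 libraries, COL1A1 alone having 5.18 and 6.39 against 21.4 and 21.3 CPM. COL1A2, COL6A3, DCN and TAGLN were not called, at 0.28, 0.07, -0.08 and -0.11 on the log2 scale. LUM and FAP were at 0, and no library had more than 3 counts of COL3A1. The part of these genes in the AIF1L, ENAH and PLS3 results was not tested.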

How the data were processed

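RNA of K562 cells was poly(A)-selected and made into directional libraries for sequencing, per the labels' protocols. The authors deposited estimated counts per gene as raw counts, and between 29.9% and 33.6% of a library's values are not whole to within 1e-06. The submitters' processing notes name fastp 0.20.1, kallisto 0.46.2, DESeq2 1.30.1 and the build hg38, with no role or order, and the annotation is not given in the sources used here. The second deposited table is the authors' own comparison. Its log2 fold change and standard error, the score (the fold change over its error), the mean normalized signal, and the p-value and adjusted p-value are theirs, per the file headers.

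The estimated counts were rounded, filtered with filterByExpr, scaled with TMM and tested with edgeR 4.0.16 (R 4.3.3) in a model of group alone; alternatives used DESeq2 1.42.0 and limma 3.58.1. P-values were two-sided and adjusted over all genes tested. CPM used library totals. The standard error is the log2 fold change over the square root of F. Positions and transcript lengths came from GENCODE on GRCh38. Intervals cover counting error only. The fits were tested on simulated data. The members and lists were chosen with earlier results of these data known. Genes named were the 10 members, JAZF1 and SUZ12, the 5 genes most like AIF1L, and up to 3 called genes per list with the smallest p and a mean of at least 50 counts; neighbours of 3 members, marker genes and others singled out were named after their values were seen. Marker lists of 7 lymphoid and 6 megakaryocyte genes had 3 tested genes each and 0 called, where 24.7% of all genes were called. So few tested genes do not show that these marker sets were unchanged.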

Additional observations from a re-analysis of the deposited data

How the results depend on the processing

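Each count was refitted under 12 alternatives. With DESeq2 the 3643 genes called became 2407, and the 16 other actin genes called higher became 10. At an adjusted p under 0.01 there were 2045 genes called, 4 of the 10 members (7 at 0.05) and 20 other actin genes (34 at 0.05), 10 of them higher and 10 lower; a stricter threshold lowers counts by construction. Leaving out 1 library assumes that the lone library of a group varies like the other group. It gave from 4 to 7 members called, with 4 without mock replicate 1, and from 19 to 35 other actin genes, of which 8 to 13 were higher and 11 to 22 lower, the lowest in each case without JAZF1-SUZ12 replicate 2. Of 109 values of single members, 96 kept their direction and side of the threshold, 11 lost the call (PLS3, FSCN1 and AIF1), ACTN1 gained it once, and PLS1, never called, ranged from -0.19 without mock replicate 2 to 0.068 without mock replicate 1, its only change of sign. The cause of the DESeq2 difference was not tested. PLS3 was not fitted at a mean of at least 50 counts.

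Same-numbered libraries did not deviate together (correlation of replicate differences -0.00073 over all genes tested and 0.035 at a mean of at least 50 counts). A replicate block for the number gave 4061 genes, 7 members and 37 other actin genes called.

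Shares per length moved with the transcript length used. With median lengths ENAH held 1.03% (mock) and 8.05% (JAZF1-SUZ12) of ENA/VASP, LCP1 90.5% and 89.1% of plastins, and AIF1L 75.8% of its pair in mock. With principal transcripts as APPRIS tags them, an alternative chosen after seeing the data, ENAH held 1.93% in JAZF1-SUZ12 libraries and AIF1L 66.1% and 94.4%. Only 2 libraries a group and the low counts of PLS3 limit precision.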

Other observations

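The authors' deposited table and the deposited counts do not give the same scale for every member. For ENAH the mean normalized count in the authors' deposited table was 357, against a mean of 288 estimated counts here, and for PLS3 it was 20.7 against 10.8. For AIF1L the values were 2604 and 2661, and for LCP1 5989 and 6009. ENAH and PLS3 are also the members whose log2 fold change differs most between the analyses. No step that separates them is stated in the sources used here.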
